A study of Mus musculus with 6 samples.

Results

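Fibroblast growth factors (FGFs) are secreted proteins that act through receptor tyrosine kinases, together with heparan sulfate chains on the cell surface. Binding leads to phosphorylation of adaptor proteins inside the cell, to activity of the MAPK pathway, and to induction of feedback inhibitors of the Sprouty, Spred and Dusp families. In vessels, FGF signalling is known for its part in endothelial growth and in the upkeep of the endothelial barrier, and in connective tissue it acts on fibroblasts.

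The genes described here are the 4 FGF receptor genes Fgfr1, Fgfr2, Fgfr3 and Fgfr4, and the 5 ligand genes Fgf1, Fgf2, Fgf7, Fgf10 and Fgf18. They were chosen by name and make up 9 of the 22183 genes in the deposited table, with 1 row for each. RNA was sequenced from cells isolated as peritoneal endothelial cells (ECs) from 3 PD mice, which received peritoneal dialysis (PD) fluid into the peritoneum daily for 6 weeks, and from 3 saline mice, which received saline in the same way. All 6 mice were wild type, and the paper's methods describe male C57BL/6J mice aged 8 to 10 weeks. The comparison asks how transcript levels in peritoneal ECs differ after exposure to PD fluid. Each library comes from 1 mouse, and between 21973426 and 26374292 reads per library were counted on genes. Levels are given as counts, as CPM (counts divided by library size, with TMM scaling between libraries) or as the authors' FPKM, which also divides by transcript length.

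The labels call the cells endothelial and describe magnetic sorting of CD31+ cells, while the supplementary methods describe a sort of CD31+ CD45- cells from the mesentery. Pecam1, which encodes CD31, averaged 469 ± 19.4 CPM over the saline mice against 514 ± 7.85 CPM over the PD mice (SD, n = 3 each). This difference did not pass (log2 fold change 0.13, edgeR adjusted p = 0.0704), and Pecam1 is not among the 12 endothelial markers below. Ptprc, which encodes CD45, was at 2373 ± 127 and 1473 ± 63.6 CPM (SD, n = 3 each), so a leukocyte transcript was abundant in all 6 libraries. The summed level of 12 endothelial markers ran from 682 to 719 CPM in saline mice and from 1363 to 1464 CPM in PD mice, and 12 of 12 were higher. The 11 fibroblast markers went from 102 to 109 CPM in saline mice to 889 to 928 CPM in PD mice (11 of 11 higher), and the 8 mesothelial markers from 30.7 to 36.8 CPM to 207 to 239 CPM (8 of 8 higher). Higher levels were also seen for 9 of 10 mural markers (293 to 314 against 468 to 516 CPM), 9 of 9 macrophage markers (2643 to 2789 against 10971 to 11890 CPM), 4 of 6 tested epithelial markers (10.2 to 12 against 41.8 to 45.8 CPM), 11 of 11 acinar markers (2.34 to 5.9 against 7296 to 8220 CPM) and 6 of 6 tested neutrophil markers (5.26 to 7.24 against 220 to 225 CPM). Lower levels were seen for 7 of 7 B cell markers (6398 to 6691 against 3018 to 3073 CPM) and 4 of 6 T cell markers (1793 to 1833 against 1350 to 1492 CPM), and the 4 tested adipocyte markers did not pass (9.15 to 11.3 against 8.14 to 9.23 CPM). In saline mice, Reg1 and Rbpjl of the acinar list, Ly6g and Camp of the neutrophil list and Cftr of the epithelial list were at 3 counts or fewer in every library, and no marker was so in all 6 libraries. The acinar markers other than Cela1 did not reach the cut of the filter on low counts in every saline mouse, so they were tested only through the PD mice. The same held for the neutrophil markers Mmp8, Camp and Ltf and the mesothelial markers Wt1, Bnc1 and Muc16. It also held for Clec3b of the fibroblast list and Cspg4 of the mural list. Their calls as higher were thus partly set by that filter. In these bulk libraries, a change in the share of a cell type and a change in RNA per cell cannot be told apart.

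On GRCm38 with the GENCODE M21 annotation, all 9 are protein-coding genes. Fgfr1 lies at chr8:25513654-25575718, Fgfr2 at chr7:130162451-133123350 on the minus strand, Fgfr3 at chr5:33721674-33737068 and Fgfr4 at chr13:55152640-55168759. Fgf2 lies at chr3:37348346-37410108, Fgf7 at chr2:126034658-126091185, Fgf10 at chr13:118669791-118792115, and Fgf18 at chr11:33117430-33147400 on the minus strand. The build and annotation behind the counts are not given in the sources used here. Some exons overlap other genes. Fgf2 shares 640 exonic bases, 9.4% of its exons, with Nudt6 on the opposite strand, Fgfr2 shares 314 bases (3.0%) with Ctbp2 on the same strand, and 998 bases of Fgfr3 (13.9%) lie opposite the antisense gene G630022F23Rik, which has no row in the table. The library kit named in the labels does not mark strand, so reads from shared bases cannot be told apart.

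RefSeq promoter windows on GRCm38.p6 were at hand for 7 of the 9 genes, and none for Fgfr1 and Fgf1. The bases before the transcription start are shown for the members with a window that were called higher in PD mice. The question there is what members with the same direction have in their promoters. Their profiles over the PD mice were not all alike, as described below for Fgfr2 and Fgfr3. Of the annotated Fgfr3 starts, the first is shown, cut to the 200 bases outside its GENCODE exons at chr5:33721474-33721673 on the plus strand. The other windows hold 250 bases, at chr7:130266809-130267058 on the minus strand for Fgfr2 (inside the annotated gene, outside its exons), at chr2:126034408-126034657 on the plus strand for Fgf7, and at chr11:33147401-33147650 on the minus strand for Fgf18. The letters run 5′ to 3′, and capitals mark the GC box, GGGCGG or CCGCCC on the other strand.
Fgfr2: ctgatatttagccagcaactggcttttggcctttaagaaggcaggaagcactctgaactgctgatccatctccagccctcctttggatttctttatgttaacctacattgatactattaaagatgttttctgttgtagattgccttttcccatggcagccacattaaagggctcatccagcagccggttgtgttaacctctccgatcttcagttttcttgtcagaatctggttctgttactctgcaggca
Fgfr3: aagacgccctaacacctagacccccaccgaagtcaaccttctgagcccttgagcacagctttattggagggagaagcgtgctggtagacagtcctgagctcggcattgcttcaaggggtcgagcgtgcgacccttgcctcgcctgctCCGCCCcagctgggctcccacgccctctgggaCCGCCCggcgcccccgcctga
Fgf7: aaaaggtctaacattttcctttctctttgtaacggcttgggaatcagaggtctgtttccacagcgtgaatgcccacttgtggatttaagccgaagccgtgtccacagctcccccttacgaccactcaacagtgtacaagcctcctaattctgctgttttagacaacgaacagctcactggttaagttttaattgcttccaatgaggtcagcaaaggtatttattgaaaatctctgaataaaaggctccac
Fgf18: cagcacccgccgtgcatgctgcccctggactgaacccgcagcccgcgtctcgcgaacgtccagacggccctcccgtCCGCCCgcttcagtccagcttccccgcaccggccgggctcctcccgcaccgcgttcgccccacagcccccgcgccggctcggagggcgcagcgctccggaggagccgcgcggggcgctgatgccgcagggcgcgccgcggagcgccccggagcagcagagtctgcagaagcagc

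The 4 promoters fall into a GC-rich pair and an AT-rich pair. Over the 250 bases before the start, the windows of Fgf18 and Fgfr3 held 77.2% and 66.8% G and C, against 44% for Fgfr2, 43.6% for Fgf7 and a median of 52.4% over 32851 windows. The Fgf18 window had 37 CG pairs and that of Fgf7 had 6. The Fgf2 window, which lies wholly in an annotated Fgf2 exon and is therefore not printed, held 62.4% G and C and 1 GC box. A GC box was present in 32.7% of all windows, and in none of those of Fgfr2 and Fgf7. Neither TATAAA (12.4% of all windows) nor the AP-1 sequence TGANTCA (6.75%) was found on either strand in any of the 8 member windows. These are matches of letters only, and the 4 windows shown had none of the 3 motifs in common.

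Among the receptors, Fgfr1, the main FGF receptor of endothelial cells and fibroblasts, was the most abundant by length-corrected level and was higher in PD mice. It had 322, 142 and 260 counts in the saline mice and 1482, 1098 and 801 counts in the PD mice. The groups did not overlap, and the lowest library of each group was saline mouse 2 and PD mouse 3. The level went from 9.96 ± 3.09 to 45.6 ± 9.12 CPM (SD, n = 3 each), a 4.56-fold difference with a log2 fold change of 2.19 (SE 0.21), and passed the quasi-likelihood test of edgeR, Benjamini-Hochberg adjusted over all genes tested (adjusted p = 8.2e-06). Of all 14005 genes tested, 58.9% passed this test at an adjusted p under 0.05, 31.1% as higher and 27.8% as lower in PD mice, so passing it sets no member apart from the rest. A log2 fold change above 2 with an adjusted p under 0.05 was found in 4.53% of tested genes. Fgfr1 is among the proliferation and angiogenesis genes that the study chose to display in a heatmap of these same libraries, so its direction is not independent evidence.

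Fgfr3, a receptor best known for restraining growth of cartilage, had 51, 29 and 51 counts in saline mice and 270, 202 and 99 in PD mice. Saline mouse 2 and PD mouse 3 were again the lowest of their groups, and the groups did not overlap. Its level went from 1.81 ± 0.417 to 7.63 ± 2.82 CPM (SD, n = 3 each), with a log2 fold change of 2.07 (SE 0.30; edgeR adjusted p = 1.8e-04). For genes in the tenth of tested genes richest in G and C, each library's deviation from the gene's mean within its group was taken. The median deviation was lowest in the same libraries, at -0.161 on the log2 scale in saline mouse 2 and -0.073 in PD mouse 3. These values compare mice inside a group and not the groups. With a correction of each library for GC content, added after seeing the data, the log2 fold change was 1.98 for Fgfr1 and 1.81 for Fgfr3, and both calls remained.

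Fgfr2, whose splice forms serve epithelial and mesenchymal cells, was a low transcript with 10, 13 and 21 counts in saline mice and 46, 43 and 62 in PD mice. Here PD mouse 3 was the highest library, in contrast to Fgfr1 and Fgfr3. Fgfr2 reached the cut of the filter on low counts in 2 saline mice and 3 PD mice, so it passed only with the PD mice. The level went from 0.62 ± 0.24 to 2.1 ± 0.615 CPM (SD, n = 3 each), with a log2 fold change of 1.75 (SE 0.38; edgeR adjusted p = 0.00256). Ctbp2, which overlaps it on the same strand and encodes a transcriptional corepressor, had a log2 fold change of 1.09 (SE 0.12; edgeR adjusted p = 2.2e-05), and its part in the Fgfr2 counts was not tested. Fgfr4, the main FGF receptor of liver, had 0 counts in each of the 3 saline mice, which allows up to 0.138 CPM in the shallowest of them, and 5, 3 and 1 counts in PD mice. It did not pass the filter on low counts and was not tested.

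**Figure D1:**
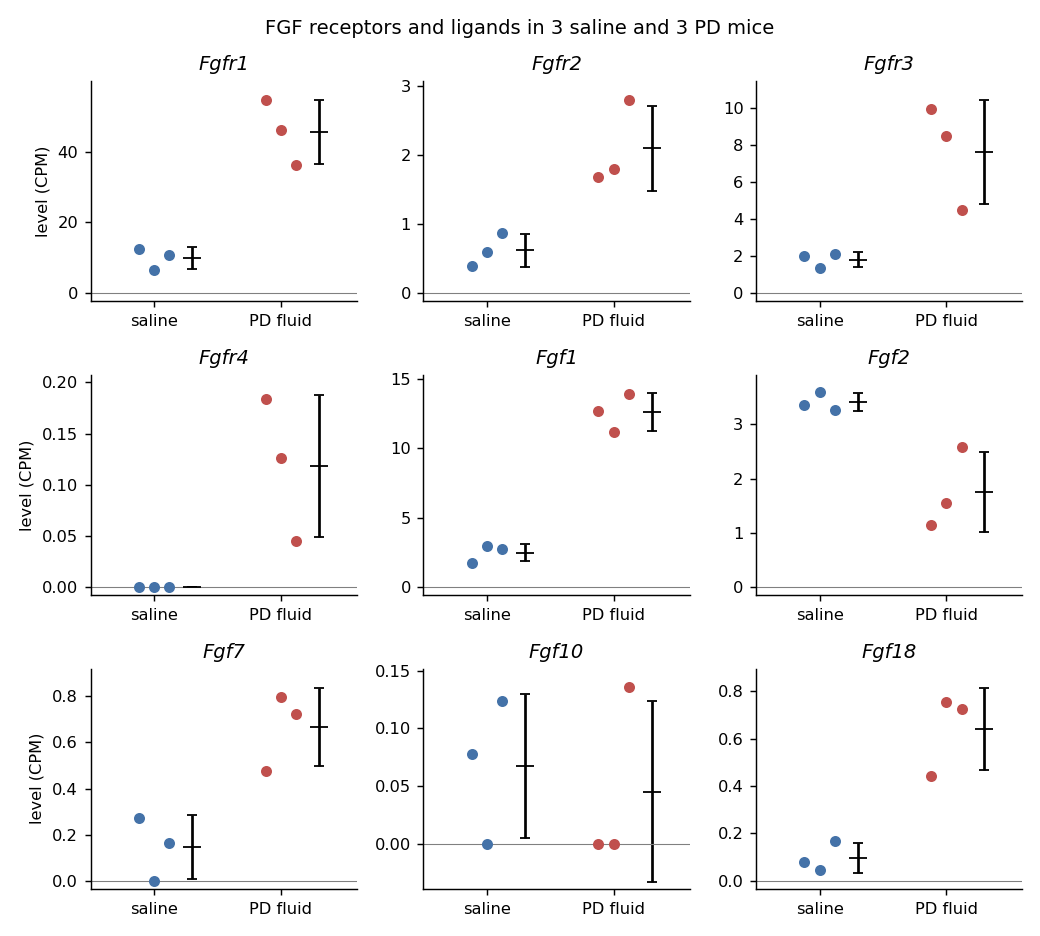
Level in CPM of the 4 receptors and 5 ligands in each of 3 saline mice (blue) and 3 PD mice (red), with the group mean and SD in black, each gene on its own linear axis. Points of the groups do not overlap for the 7 tested genes, with Fgf2 as the only tested gene lower in PD mice, and Fgf10 and Fgfr4 stay under 0.2 CPM.

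The proportions among the receptors varied less between the groups than their levels did. Fgfr1 made up 79.9 to 81.7% of the summed FPKM of the 4 receptors in saline mice and 82.9 to 84% in PD mice. Fgfr3 made up 12.7 to 15.1% and 9.46 to 13%, and Fgfr2 3.26 to 6.42% and 2.74 to 7.49%. Ratios of counts inside a library do not depend on how libraries are scaled. The log2 ratio of Fgfr1 to Fgfr3 averaged 2.42 in saline mice and 2.63 in PD mice, a difference of 0.22 that lay within the spread of the libraries (two-sided exact permutation test, p = 0.5, 0.625 after adjustment over the 10 ratios computed). That of Fgfr1 to Fgfr2 differed by 0.46, also with overlap (exact permutation p = 0.5). With 3 mice against 3, this test cannot give a p under 0.1, or under 0.25 after adjustment here.

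Among the ligands, Fgf1 and Fgf2, which lack a classical signal peptide and are widely studied as angiogenic factors, differed in opposite directions. Fgf1, which can bind all FGF receptors, had 45, 64 and 66 counts in saline mice and 344, 266 and 306 in PD mice. Every PD mouse was far above every saline mouse. Its level went from 2.48 ± 0.636 to 12.6 ± 1.36 CPM (SD, n = 3 each), a 5.08-fold difference with a log2 fold change of 2.35 (SE 0.20; edgeR adjusted p = 3.1e-06). The transcript length implied by the ratio of its counts to its FPKM ran from 2.47 to 3.93 kb between libraries. For Fgfr1, Fgfr2 and Fgfr3 it ran from 3.03 to 3.92, 3.05 to 4.24 and 3.36 to 4.21 kb, and for Fgf2 from 5.89 to 6.01 kb. The FPKM of Fgf1 and of the receptors thus varied between libraries in part apart from their counts, and the reason was not tested.

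Fgf2, also called basic FGF, was the only tested member lower in PD mice. It had 86, 78 and 79 counts in saline mice and 31, 37 and 57 in PD mice. The saline libraries lay close together, and PD mouse 3 was the nearest to them. Its level went from 3.41 ± 0.169 to 1.76 ± 0.743 CPM (SD, n = 3 each), a 1.96-fold lower level with a log2 fold change of -0.97 (SE 0.29; edgeR adjusted p = 0.0154). The call was lost without PD mouse 1 (log2 fold change -0.73, adjusted p = 0.0581) and without PD mouse 2 (-0.88, adjusted p = 0.0576). Nudt6, the gene on the opposite strand that encodes a Nudix hydrolase, was also lower, from 16.3 ± 1.34 to 10.9 ± 0.832 CPM (SD, n = 3 each; log2 fold change -0.58, edgeR adjusted p = 0.00183). Since the kit does not mark strand, the reads of the shared bases cannot be told apart.

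The ratio of the 2 genes inside each library also separated the groups, though a ratio does not give the direction of either gene. The log2 ratio of Fgf2 to Fgf1 counts was 0.93, 0.28 and 0.26 in saline mice and -3.45, -2.83 and -2.41 in PD mice. Fgf2 counts exceeded Fgf1 counts in all 3 saline mice and fell short of them in all 3 PD mice. Counts are not corrected for length, and Fgf2 had the longer implied transcript. By mean FPKM, Fgf1 was above Fgf2 in saline mice as well (0.838 and 0.568), with overlap between libraries. The mean difference in the log2 ratio was -3.39, with an exact permutation p of 0.1, the smallest the design allows (0.25 after adjustment over 10 ratios).

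**Figure D2:**
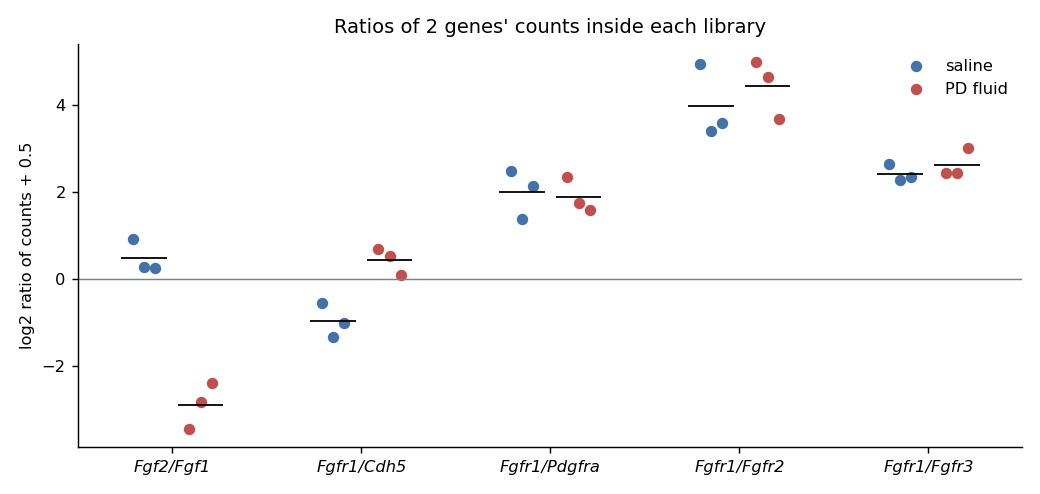
Log2 ratio of the counts of a pair of genes inside each library, after adding 0.5 to each count, for 3 saline mice (blue) and 3 PD mice (red), with group means as black lines. Fgf2/Fgf1 and Fgfr1/Cdh5 separate the groups on opposite sides of 0, while Fgfr1/Pdgfra, Fgfr1/Fgfr2 and Fgfr1/Fgfr3 overlap. Counts are not corrected for transcript length, so 0 does not mark equal transcript levels.

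The other ligands among the members were rare transcripts. Fgf7, or keratinocyte growth factor, is made by mesenchymal cells and acts on epithelial cells. It had 7, 0 and 4 counts in saline mice and 13, 19 and 16 in PD mice, with a log2 fold change of 2.08 (SE 0.68; edgeR adjusted p = 0.0212). Fgf18, known for its role in bone and lung development, had 2, 1 and 4 counts in saline mice and 12, 18 and 16 in PD mice, with a log2 fold change of 2.64 (SE 0.61; edgeR adjusted p = 0.00362). For both, the groups did not overlap, but both passed the filter on low counts only through the PD mice, so a gene of this kind could hardly be tested without being higher. The Fgf7 call was also lost without saline mouse 3 (log2 fold change 2.14, adjusted p = 0.0519), PD mouse 2 (1.94, adjusted p = 0.0728) or PD mouse 3 (2.03, adjusted p = 0.0554). Without saline mouse 1 the call remained and the log2 fold change was 2.87.

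Fgf10, a close relative of Fgf7 that guides branching of lung and other organs, had 2, 0 and 3 counts in saline mice and 0, 0 and 3 in PD mice. It was at or below the floor of 3 counts in every library and was not tested. At this depth, 3 counts correspond to 0.11 to 0.138 CPM, and lower levels could not be measured. Fgf7 thus summed to 11 and 48 counts in the saline and PD mice, and Fgf10 to 5 and 3 counts.

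By length-corrected level, Fgfr1 stood above the other members in both groups, at 2.89 ± 0.657 FPKM in saline mice and 12.9 ± 2.93 FPKM in PD mice (SD, n = 3 each). In saline mice, Fgf1 (mean 0.838 FPKM), Fgf2 (0.568 FPKM) and Fgfr3 (0.498 FPKM) followed in an order whose neighbours overlapped, and then came Fgfr2 (0.186 FPKM), Fgf18 (0.0977 FPKM), Fgf7 (0.064 FPKM) and Fgf10 (0.0163 FPKM), also with overlap between neighbours. In PD mice, the order was Fgfr1, Fgf1 (3.99 FPKM) and Fgfr3 (1.86 FPKM) without overlap. Fgfr2 (0.623 FPKM) and Fgf18 (0.614 FPKM) came next and overlapped with each other, followed by Fgf2 (0.294 FPKM) and Fgf7 (0.259 FPKM), which overlapped as well. Fgf2 thus had rank 3 in saline mice and rank 6 in PD mice. Fgfr4 (0.036 FPKM) and Fgf10 (0.011 FPKM) came last in PD mice.

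Of the 9 members, 7 were tested and 7 passed, 6 as higher and 1 as lower, where 58.9% of all tested genes passed. The groups did not overlap in these 7, against 65.6% of all tested genes, 34.0% with PD mice higher and 31.6% with PD mice lower. These counts include Fgf7 and Fgf18, which could be tested only because they were high in PD mice. They also include Fgfr2, which reached the cut of the filter on low counts in 2 saline mice and 3 PD mice. The call of Fgfr2 as higher was thus also partly set by that filter. The direction depends on what the libraries are scaled to: the 6 higher members stayed above 0 relative to all genes, endothelial markers or B cell markers, and all 6 were below 0 relative to fibroblast or mesothelial markers. Scaled to the 12 endothelial markers, which lowers the median of all tested genes from 0.02 to -1.07, the log2 fold change was 1.11 for Fgfr1, 0.98 for Fgfr3, 1.25 for Fgf1, 1.59 for Fgf18 and -2.05 for Fgf2, and these calls remained. Fgfr2 (0.68, adjusted p = 0.131) and Fgf7 (1.03, adjusted p = 0.171) did not pass on that scale. Scaled to the 11 fibroblast markers (median of all genes -2.89), Fgfr1 was at -0.70, Fgfr3 at -0.83 and Fgf1 at -0.57, and scaled to the 8 mesothelial markers (median -3.56), a scaling added after seeing the data, they were at -1.40, -1.50 and -1.22. The values below 0 of Fgf7 and Fgf18 did not pass the test, at -0.76 (adjusted p = 0.313) and -0.19 (adjusted p = 0.809) with fibroblast scaling and at -1.46 (adjusted p = 0.0635) and -0.87 (adjusted p = 0.306) with mesothelial scaling. Fgf2 showed the reverse dependence. Scaled to the 7 B cell markers, also added after seeing the data and with a median of all genes of 1.09, it had a log2 fold change of 0.11 (SE 0.31; edgeR adjusted p = 0.736).

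**Figure D3:**
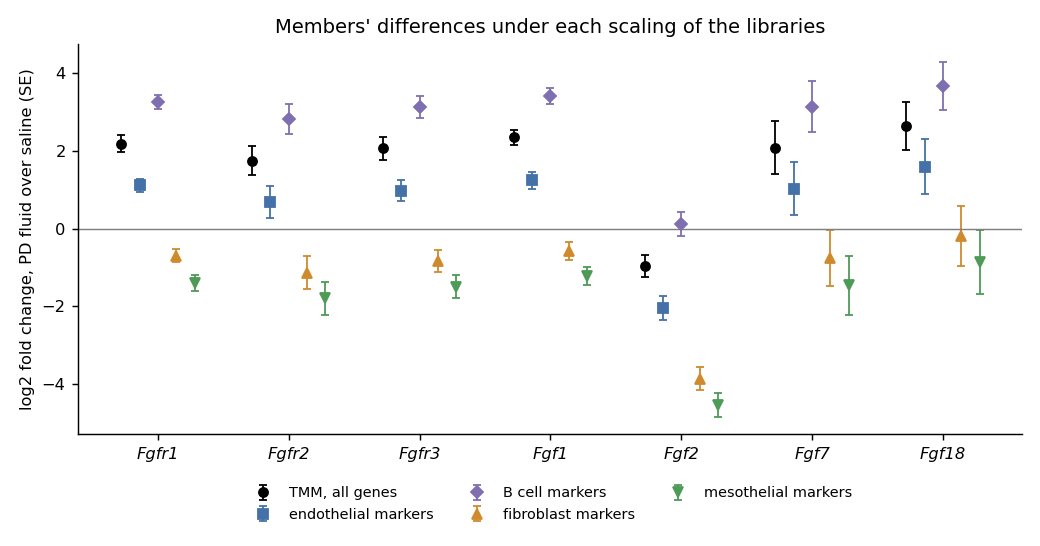
Log2 fold change of PD over saline mice with its SE for the 7 tested members, from the edgeR fit with TMM scaling over all genes (black) and with libraries scaled to endothelial, B cell, fibroblast or mesothelial marker genes. The 6 members above 0 in black fall below 0 with fibroblast or mesothelial scaling, and Fgf2 lies above 0 only with B cell scaling.

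Ratios to single marker genes need no scaling. The log2 ratio of Fgfr1 to Cdh5, which encodes VE-cadherin, was -0.55, -1.33 and -1.02 in saline mice and 0.68, 0.52 and 0.10 in PD mice, a mean difference of 1.40 without overlap (exact permutation p = 0.1, 0.25 adjusted). The ratio of Fgfr1 to Pdgfra, a receptor gene that marks fibroblasts, was 2.49, 1.39 and 2.15 in saline mice and 2.34, 1.75 and 1.59 in PD mice. This difference of -0.11 lay within the spread of the libraries (exact permutation p = 0.9), which does not show the ratios to be alike, since the SD was 0.56 and 0.40. Pdgfra itself went from 2.37 ± 0.135 to 12.1 ± 1.44 CPM (SD, n = 3 each), Dcn, a fibroblast proteoglycan, had a log2 fold change of 3.19, and Upk3b, a mesothelial gene, one of 3.06, against 0.82 for Cdh5. The 12 endothelial markers ran from 0.53 to 1.65 (median 0.98) and the 11 fibroblast markers from 1.94 to 3.91 (median 2.70). Ratios of Fgfr1 to other markers of these lists would thus differ from those given. The ratio of Fgf2 to Upk3b fell by 4.08 (exact permutation p = 0.1). The part of each cell type in the members' differences was not tested.

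For each member that passed, the tested genes with the most similar profile over the 6 libraries were sought by the root mean squared difference (RMS) of centred log2(CPM + 1) values. For Fgfr1 these were Rasip1 (RMS 0.102), Csf2rb2 (0.105) and Caskin2 (0.121). For Fgfr3 they were Col4a1 (0.119), Tmem132a (0.127) and Cdr2l (0.144), for Fgf1 Bmper (0.048), Clca3a1 (0.107) and Gpm6a (0.111), and for Fgf2 Car3 (0.085), Gapt (0.090) and U2af1l4 (0.090). Rasip1 encodes a Ras-interacting protein of endothelial cells, Col4a1 a basement membrane collagen, Bmper a binding protein of bone morphogenetic proteins and Car3 a carbonic anhydrase. Gpm6a belongs to the mesothelial marker list. For low transcripts the added 1 CPM flattens the profile, so that genes with another fold change can come out as nearest. Bmper, Clca3a1 and Gpm6a had log2 fold changes of 3.69, 2.12 and 2.02, against 2.35 for Fgf1. Car3, Gapt and U2af1l4 were at -0.69, -0.75 and -0.60, against -0.97 for Fgf2. The nearest to Fgfr2, at 1.75, were Ctla2b, Plekhf1 and Dgkb (log2 fold changes 0.97, 0.92 and 1.78). Igf1r, Hand2 and Gfi1b (0.66, 1.71 and 1.08) were nearest to Fgf7, at 2.08. Antxr2, Vangl1 and Hk2 (0.63, 0.76 and 0.62) were nearest to Fgf18, at 2.64.

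The rest of the FGF pathway was followed in 86 genes sorted by role, of which 85 had a row and 60 were tested. Relative to all genes, 38 were higher and 4 lower in PD mice, while relative to endothelial markers 9 were higher and 33 lower. The shares relative to all genes were 63.3% higher and 6.67% lower, against 31.1% and 27.8% of all tested genes, and the median log2 fold change was 0.68 against 0.02. Among 13 further secreted ligands, only Fgf9, a ligand made by mesothelial and other cells, was tested. It had 0, 6 and 2 counts in saline mice and 34, 25 and 20 in PD mice (log2 fold change 3.19, SE 0.67; edgeR adjusted p = 0.00195), and it too was high enough only in PD mice. The intracellular FGF gene Fgf13, whose protein is not secreted and binds sodium channels, had 341, 280 and 273 counts in saline mice and 392, 292 and 284 in PD mice (log2 fold change 0.08, edgeR adjusted p = 0.619).

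Among co-receptors, proteoglycans and FGF-binding proteins, 12 of 15 tested were higher (80.0%, against 31.1% of all genes) and 2 lower. The 12 include Gpc6, which had 6, 0 and 5 counts in saline mice and passed the filter on low counts only through the PD mice. Sdc3, which encodes a syndecan, had a log2 fold change of 2.56 (SE 0.33; edgeR adjusted p = 7.6e-05), and Gpc3, a glypican gene, one of 2.52 (SE 0.20; edgeR adjusted p = 1.5e-06). Sdc3 had 674, 192 and 623 counts in saline mice and 4445, 2520 and 2012 in PD mice, with the lowest library of each group the same as for Fgfr1. Lower in PD mice were Fgfbp3, which encodes a carrier of secreted FGFs (-0.71, edgeR adjusted p = 0.014), and Sdc4, another syndecan gene (-0.33, edgeR adjusted p = 0.0205). Of the enzymes that build or trim heparan sulfate, 9 of 13 tested were higher (69.2%) and 4 did not pass. Sulf2, a sulfatase that removes sulfate groups outside the cell, was at 1.52 (edgeR adjusted p = 1.6e-06), and Hs6st2, a sulfotransferase, at 1.09 (edgeR adjusted p = 0.0387). Hs6st2, counted among the 9, had 15, 15 and 7 counts in saline mice and 26, 31 and 24 in PD mice. It reached the cut of the filter on low counts in 2 saline mice, so it too passed only with the PD mice.

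Inside the cell, 5 of 14 adaptor genes were higher and 1 lower. This share of 35.7% higher is close to the 31.1% of all tested genes. Gab2 and Gab1, docking proteins for receptor signals, had log2 fold changes of 1.94 (edgeR adjusted p = 3.7e-06) and 1.70 (edgeR adjusted p = 1.1e-04), and Grb2, the adaptor that recruits Sos, one of -0.29 (edgeR adjusted p = 0.0024). Of the feedback inhibitors, 6 of 9 tested were higher (66.7%) and 1 lower, with Spred1 at 1.42 (edgeR adjusted p = 3.4e-05), Spry1 at 0.97 (edgeR adjusted p = 5.1e-06) and the phosphatase gene Dusp4 at -0.43 (edgeR adjusted p = 0.0375). Of the target genes, 5 of 6 tested were higher (83.3%), with the transcription factor genes Etv1 at 1.30 (edgeR adjusted p = 4.2e-05) and Fos at 0.90 (edgeR adjusted p = 4.9e-07). These genes also respond to other receptors, and the same endothelial, fibroblast and macrophage markers as above moved with them, whose part in these differences was not tested.

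**Figure D4:**
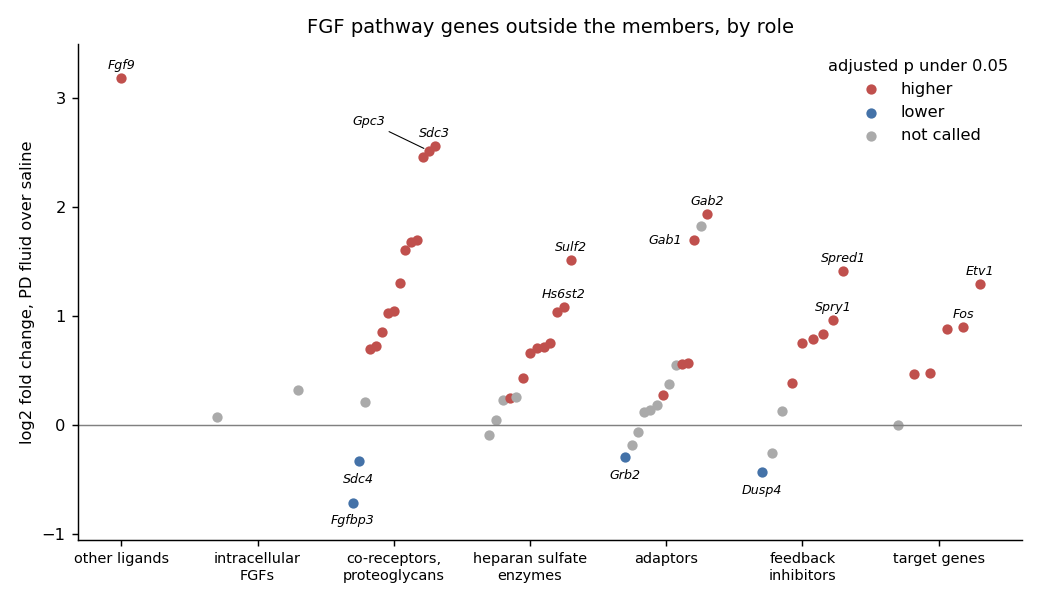
Log2 fold change of PD over saline mice (TMM scaling) for the 60 tested FGF pathway genes outside the 9 members, grouped by role, in red where higher, blue where lower and grey where the adjusted p was not under 0.05. Most co-receptor genes lie above 0, the adaptors range from -0.29 for Grb2 to 1.94 for Gab2, and Fgf9 is the only tested gene of the other ligands.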

How the data were processed

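Poly(A) RNA from sorted cells of 6 mice was sequenced on an Illumina NovaSeq, 1 library per mouse. The authors deposited a table of read counts per gene, not normalized, and their FPKM values, with fastp 0.18.0, Bowtie2 2.2.8, HISAT2, StringTie and RSEM named in the submitters' processing notes. If RSEM made the counts, they are rounded estimates, which the whole numbers do not show. The authors' deposited log2 ratios, p-values and group means were not used. Genome build and annotation are not given in the sources used here, and positions come from GENCODE M21 by Ensembl identifier (22128 of 22183 matched).

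Counts were tested in R 4.3.3 with edgeR 4.0.16: filterByExpr (minimum count 10) kept 14005 genes, TMM scaling, quasi-likelihood test without covariates, two-sided, Benjamini-Hochberg over all tested genes, threshold 0.05. SEs were derived from the F statistic. Scripts were tested on simulated data. FPKM served, without a test, to order genes, for receptor shares and for implied transcript lengths. Ratios used log2((count + 0.5)/(count + 0.5)) and exact permutation tests (scipy 1.17.1). Replicates of a group differed by more than sampling noise (chi-square per degree of freedom 6.5 to 18.1), so no library was counted as a repeat. A floor of 3 counts covers counting error only.

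Alternatives were DESeq2 1.42.0, limma-voom (limma 3.58.1), median-of-ratios size factors, no filter, a replicate block, each mouse left out, and scaling to endothelial or fibroblast markers. Mesothelial and B cell scaling and the GC correction were added after seeing the data. The members and the gene lists were chosen with earlier results of these data known. Named genes were the 9 members; up to 2 called genes per pathway role and direction, by size of change, with a mean of at least 10 counts; the sort checks; and 3 nearest profiles per called member. Genes named outside this rule (Fgf13, Gpc6, Fgfrl1, Dusp6, and Ctbp2 and Nudt6 for their overlap) were picked after their values were seen.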

Additional observations from a re-analysis of the deposited data

How the results depend on the processing

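All 7 tested members kept direction and call under DESeq2, limma-voom, median-of-ratios size factors, no filter on low counts and the GC content correction. Replicate numbers did not pair the mice (correlations of deviations 0.16, 0.06 and -0.23), and with the replicate block the calls of 7 members remained. With each mouse left out, the number of lower members ranged from 0 to 1 (0 without PD mouse 1 or 2, which ends the call of Fgf2) and the number of lower pathway genes from 2 to 4 (2 without saline mouse 1 or 3 or PD mouse 1 or 2). Marker scaling moved the counts most. Of all genes, 980 were higher and 10495 lower with endothelial scaling, 144 and 13435 with fibroblast, 90 and 13668 with mesothelial, and 13097 and 44 with B cell scaling, against 4359 and 3887 with TMM. Pathway genes were 9 higher and 33 lower with endothelial, 0 and 55 with fibroblast, 0 and 58 with mesothelial, and 58 and 0 with B cell scaling, against 38 and 4. Members were 0 higher and 5 lower with fibroblast and with mesothelial scaling, and 0 were lower with B cell scaling. With fibroblast scaling, the log2 fold change was -0.70 for Fgfr1, -1.14 for Fgfr2, -0.83 for Fgfr3, -0.57 for Fgf1, -0.76 for Fgf7 and -0.19 for Fgf18. With mesothelial scaling, it was -1.40, -1.80, -1.50, -1.22, -1.46 and -0.87 in the same order. With B cell scaling, Fgf2 was at 0.11. These shifts follow from the scaling itself, which moves every gene by the change of the marker list. The difference in the Fgfr1 to Fgfr4 log2 ratio was -0.36 with 0.5 added to counts and 1.30 with 3 added, as Fgfr4 was at 0 in saline mice. Depth limits Fgfr4, Fgf7, Fgf10 and Fgf18, whose counts stayed under 20 in every library.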

Other observations

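Apart from Fgf9, the other secreted FGF ligands did not pass the filter on low counts. The following, with the klotho co-receptors, were picked after their values were seen. Fgf21, a hormone-like ligand that needs beta-klotho, had 3, 0 and 0 counts in saline mice and 8, 6 and 7 in PD mice. Klb, which encodes beta-klotho, had 0, 0 and 4 counts in saline mice and 8, 10 and 9 in PD mice. Neither passed the filter on low counts, and no test was made. Kl, which encodes alpha-klotho, summed to 1 count in saline mice and 0 in PD mice. Fgf4, Fgf6, Fgf8 and Fgf20 had 0 counts in all 6 libraries, which allows up to 0.138 CPM in the shallowest of them.

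Fgfrl1, which encodes an FGF receptor without a kinase domain, had 18, 15 and 28 counts in saline mice and 66, 54 and 36 in PD mice, with a log2 fold change of 1.31 (SE 0.33; edgeR adjusted p = 0.00597). PD mouse 3 was the lowest PD library, as for Fgfr1 and Fgfr3. Dusp6, a phosphatase gene widely used as a readout of FGF and MAPK activity, had a log2 fold change of 0.39 (SE 0.07; edgeR adjusted p = 6.3e-04), smaller than that of any of the 6 members that were higher in PD mice.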
